A study of Homo sapiens with 4 samples.

Results

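The regulators described are 10 genes whose products keep the fetal gamma-globin genes silent, or act upstream of that silencing. They are BCL11A, ZBTB7A, SOX6, IKZF1, NR2C1, NR2C2, CHD4, MBD2, MYB and HBS1L. They were taken by gene symbol from a table of 34692 gene entries, and each of the 10 has 1 entry. RNA came from K562 cells, an established human line from a chronic myelogenous leukaemia, and was hybridised to Illumina HumanHT-12 beadchips. The 2 ZNF16 arrays hold stable transductants that over-express ZNF16, a zinc finger gene. The 2 control arrays hold stable control transductants of the same line. The sources used here do not give the vector, its promoter or whether a transductant is a clone or a pool. They also do not say that the transductants of a group were made separately, so the p-values below measure the spread between these arrays, which may be technical.

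Red cell precursors make embryonic, fetal and adult haemoglobin in turn from the genes of the beta-globin cluster. In adult cells BCL11A and ZBTB7A, a pair of zinc finger repressors, bind the gamma-globin promoters and bring in the NuRD complex, which removes histone acetyl groups and remodels nucleosomes. K562 cells are known for the opposite state, with active embryonic and fetal globin genes and little beta-globin.

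The embryonic and fetal genes of the cluster were bright on the arrays. Signals of different genes come from different probes, so their levels cannot be set against that of beta-globin. The fetal gamma genes HBG1 and HBG2 and the embryonic epsilon gene HBE1 had deposited signals between 60392 and 68827 on all arrays, close to the highest signal of each array, where little room is left to see a difference. The adult beta gene HBB had a signal of 542.5 and 521.8 with ZNF16 and 542.2 and 565.2 in the controls. The adult delta gene HBD had 4716.3 and 4604.1 with ZNF16 and 2620.8 and 2276.8 in the controls. Of 10 erythroid markers 9 passed the detection filter, and the summed signal of the 10 was 270325 and 270312 with ZNF16 and 265952 and 241324 in the controls. The only one that missed it, ALAS2, which encodes the erythroid enzyme of haem synthesis, did so in spite of a signal of at least 2185.7, since it combines 3 probes of which at least 1 was dim. The same held for LYZ, the lysozyme gene among 5 monocyte and granulocyte markers. It combines 2 probes and read 764.0 and 728.7 with ZNF16 and 636.9 and 592.9 in the controls, above every detection limit and without overlap between the groups. None of the 5 passed (summed signal 2543 and 2352 with ZNF16, 2359 and 2277 in controls), nor did 4 of 5 lymphoid markers (sum of the 5, 2030 and 2127 with ZNF16, 2051 and 2209 in controls). Of 6 fibroblast and epithelial markers COL1A2 and EPCAM passed, with a sum over the 6 of 4428 and 4128 with ZNF16 and 3569 and 3760 in controls. COL1A2 was detected in the controls alone and had no fold above its detection limit, and EPCAM had 2461.4 and 2206.5 with ZNF16 and 1707.1 and 1723.9 in the controls (log2 fold change 0.52, limma adjusted p = 0.657). Of the 9 erythroid markers tested, 6 had a log2 fold change above 0, HBG1 among them at 0.00, and 3 below, with a median of 0.09. The highest were the embryonic globin gene HBZ at 0.75 and the transferrin receptor TFRC at 0.57 (limma adjusted p = 0.587 and 0.644). Control replicate 2 was the lowest array in both. It read 26964.4 for HBZ and 10552.8 for TFRC, against 38727.3 and 15003.5 in control replicate 1. The markers below 0 were GATA1 at −0.39, HBE1 at −0.03 and KLF1 at −0.01. The summed signal of the erythroid markers comes mostly from HBG1, HBG2, HBE1 and HBZ, so it does not stand for the others. The part of these markers in the results below was not tested. The entry of ZNF16 itself, which combines 3 probes, was detected on no array. It had 400.8 and 410.7 with ZNF16 and 392.8 and 362.6 in the controls, and where its probes lie relative to the transduced sequence is unknown here, so it does not check the labels. Control replicate 2 was the array least like the rest. Over tested entries, its log2 differences had an SD of 0.610 and 0.525 from the ZNF16 arrays and 0.520 from control replicate 1. The SD was 0.341 between the ZNF16 arrays.

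Of the regulators, 5 were measured above background on every array, and the other 5 on none. IKZF1, NR2C1, NR2C2, CHD4 and MYB had detection p-values under 0.05 on all 4 arrays. The detection p sets an entry against the array's negative control beads. BCL11A, ZBTB7A, SOX6, MBD2 and HBS1L were detected on no array. The 5 measured genes belong to the 10868 entries detected on at least 2 arrays, which were tested with limma, adjusted over all of them by Benjamini-Hochberg. None of the 5 passed the threshold of 0.05, where the share called over all tested entries was 0%. IKZF1 alone had an unadjusted limma p under 0.05, with the ZNF16 arrays higher. Of all tested entries 7.67% had one, 3.66% with ZNF16 higher and 4.01% with ZNF16 lower. Both ZNF16 arrays lay above both control arrays in 2 of the 5, IKZF1 and NR2C2, and in none did both lie below. Over all tested entries the groups did not overlap in 40.0%, with the ZNF16 arrays above in 21.0% and below in 19.0%, so 2 of 5 is no more than the background. The median log2 fold change of the 5, ZNF16 minus control, was 0.13, against 0.01 over all tested entries.

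**Figure D1:**
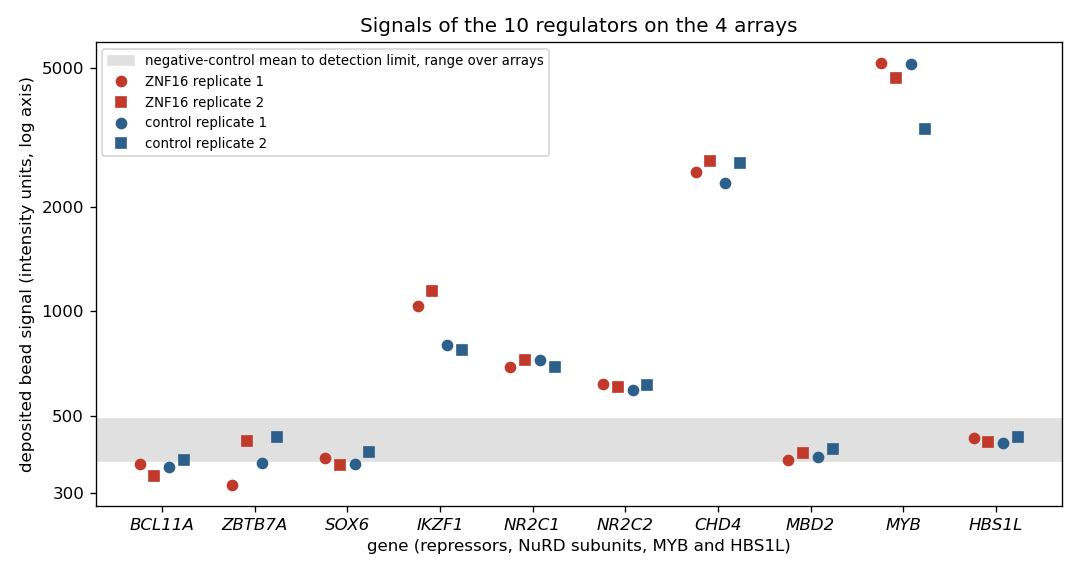
Deposited bead signal (log axis) of each of the 10 regulators on the 4 arrays, ZNF16 in red left of control in blue. The grey band runs from the lowest inferred mean of the negative controls, 369.8, to the highest detection limit, 488.3. BCL11A, ZBTB7A, SOX6, MBD2 and HBS1L lie in or below the band on every array, and in IKZF1 both ZNF16 arrays lie above both controls. Signals of different genes come from different probes and are not comparable with each other.

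IKZF1 encodes Ikaros, a zinc finger factor of lymphoid and other blood cells that also takes part in gamma-globin silencing. Its deposited signal, from a single probe, was 1036.2 and 1142.0 with ZNF16, against 800.5 and 775.6 in the controls. The groups did not overlap, and each ZNF16 signal was between 1.29 and 1.47 times each control signal. After background correction and quantile normalization the log2 values averaged 9.49 ± 0.09 with ZNF16 and 8.65 ± 0.10 in controls (SD, n = 2 arrays each). The log2 fold change was 0.84 ± 0.21 (SE), a 1.80-fold difference, with a 95% interval of 0.33 to 1.36 that is not adjusted for the number of entries. Its limma adjusted p was 0.427, from an unadjusted p of 0.00608 that ranked 154 among the tested entries, and it did not pass. In bulk RNA, more cells that express a gene and more of its RNA per cell cannot be told apart. In 368 entries, 3.39% of those tested, the log2 fold change was larger in size. The size differed with how background was handled, with a log2 fold change of 0.50 with no background correction, 0.18 with the background estimated from all entries and 0.83 in the authors' processed values. Leaving out control replicate 2, the array least like the rest, gave 0.78.

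RefSeq places IKZF1 on GRCh38.p14 chromosome 7 from 50303455 to 50405101, and lists 3 start windows for it on the plus strand. All gene positions given are RefSeq's on that build. The 300 bases around each start are shown because IKZF1 is the regulator whose groups lay furthest apart. Capitals mark GATA, the core letters bound by the erythroid factor GATA1, on either strand, so that TATC marks a match on the other strand. The MYB window, also on the plus strand, is given for comparison.
IKZF1 chr7:50304466-50304765: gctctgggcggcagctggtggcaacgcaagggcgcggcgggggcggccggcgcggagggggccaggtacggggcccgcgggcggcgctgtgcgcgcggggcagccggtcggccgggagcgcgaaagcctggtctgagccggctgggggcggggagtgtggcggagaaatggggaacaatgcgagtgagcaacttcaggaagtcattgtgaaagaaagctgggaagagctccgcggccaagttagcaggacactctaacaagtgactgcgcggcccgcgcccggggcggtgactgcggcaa
IKZF1 chr7:50308450-50308749: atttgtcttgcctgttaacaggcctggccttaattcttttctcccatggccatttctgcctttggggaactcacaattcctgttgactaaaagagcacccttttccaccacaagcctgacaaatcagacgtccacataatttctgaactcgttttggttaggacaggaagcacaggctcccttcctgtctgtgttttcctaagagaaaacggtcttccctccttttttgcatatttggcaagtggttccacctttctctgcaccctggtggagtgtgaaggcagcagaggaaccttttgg
IKZF1 chr7:50318798-50319097: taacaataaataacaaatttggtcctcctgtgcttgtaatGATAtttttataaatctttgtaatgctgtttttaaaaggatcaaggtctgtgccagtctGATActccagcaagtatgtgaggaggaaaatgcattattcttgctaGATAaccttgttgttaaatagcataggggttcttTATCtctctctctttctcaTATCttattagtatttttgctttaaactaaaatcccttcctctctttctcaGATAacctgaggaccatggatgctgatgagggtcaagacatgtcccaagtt
MYB chr6:135181058-135181357: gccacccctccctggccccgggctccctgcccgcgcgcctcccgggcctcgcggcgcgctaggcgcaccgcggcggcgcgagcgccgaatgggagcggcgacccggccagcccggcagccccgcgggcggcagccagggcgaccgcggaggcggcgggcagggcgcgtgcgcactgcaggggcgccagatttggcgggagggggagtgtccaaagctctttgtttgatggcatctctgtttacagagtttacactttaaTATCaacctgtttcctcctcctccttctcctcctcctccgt
The third IKZF1 window held 6 matches and the MYB window 1. The letters did not occur in the first or second IKZF1 window. Which of these starts the transcripts read by the array's probe come from is unknown here. Whether any RNA starts at the third IKZF1 window in these cells was not tested, so its 6 matches are not shown to lie in a promoter. Of 35116 RefSeq windows of the same length, 49.7% held GATA on either strand, so a match is common. Of the 21 start windows of the 10 regulators, 8 held it, from 5 genes, IKZF1, MYB, SOX6, NR2C1 and NR2C2. How often a window holds as many as 6 matches was not counted, and a link between GATA1 and IKZF1 was not tested. GATA1 itself had a signal of 1241.3 and 1202.2 with ZNF16 and 1241.4 and 1746.7 in the controls, where control replicate 2 was the highest and the other 3 were close together. On the log2 scale the difference was −0.39 ± 0.31 (SE), with a limma adjusted p of 0.749, and 0.01 without control replicate 2.

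MYB, a transcription factor of blood progenitors that acts upstream of globin silencing (chromosome 6, 135181308 to 135219172), had a single-probe signal of 5168.8 and 4691.9 with ZNF16, against 5146.1 and 3351.8 in the controls. The groups overlapped. Control replicate 1 lay beside the ZNF16 arrays, and control replicate 2 was the lowest. The log2 fold change was 0.27 ± 0.25 (SE, n = 2 arrays each), with a 95% interval of −0.33 to 0.87 (limma adjusted p = 0.798). It was 0.03 without control replicate 2 and reached 0.50 without the other control, so the value turned on control replicate 2. The 3 tested entries with the nearest pattern over the 4 arrays, by Euclidean distance of centred log2 values, were ITPA at a distance of 0.00709, USP36 at 0.0118 and AEBP2 at 0.0339. ITPA had signals of 1742.0 and 1623.2 with ZNF16 and 1711.4 and 1265.1 in the controls, with the same low value in control replicate 2. Such distances rest on 4 arrays and are a description only.

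HBS1L lies beside MYB on chromosome 6, from 134960378 to 135054822, and the interval between these genes carries common variants that track with fetal haemoglobin. It encodes a GTPase that works with PELO in the rescue of stalled ribosomes. Its entry had a signal of 430.6 and 419.7 with ZNF16 and 416.8 and 435.7 in the controls. The groups overlapped, and every signal lay between the negative-control means of 369.8 to 393.1 and the detection limits of 459.0 to 488.3. It combines 2 probes. Their detection p-values summed to 0.570 and 0.638 with ZNF16 and 0.595 and 0.555 in controls, low enough that 1 probe by itself could have been detected. For PELO the log2 fold change was 0.04 with an SE of 0.21 (adjusted p = 0.968 by limma), and −0.04 without control replicate 2. Of the neighbouring genes, AHI1 had 0.37 (limma adjusted p = 0.773), but 0.00 without ZNF16 replicate 2, 0.73 without ZNF16 replicate 1, 0.60 without control replicate 1 and 0.13 without control replicate 2. ALDH8A1 was detected in the controls alone and had no fold above its detection limit.

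CHD4, the nucleosome-remodelling ATPase of NuRD (chromosome 12, 6570082 to 6607379), had a single-probe signal of 2518.4 and 2707.6 with ZNF16, against 2346.5 and 2676.2 in the controls. The groups overlapped, and the controls differed more from each other than the ZNF16 arrays did. The log2 fold change was 0.04 ± 0.24 (SE), with a 95% interval of −0.52 to 0.60 (limma adjusted p = 0.971). It was 0.24 without control replicate 2 and −0.16 without the other control, on opposite sides of 0.

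MBD2, the methyl-CpG-binding subunit of NuRD (chromosome 18, 54151606 to 54224669), had a signal of 372.4 and 390.7 with ZNF16 and 380.3 and 399.9 in the controls, and was detected on none. Its entry combines 4 probes, whose mean detection p was 0.510 and 0.518 with ZNF16 and 0.475 and 0.433 in controls. No fold change is given for MBD2 or for any other regulator below background in both groups.

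NR2C1 and NR2C2 are a pair of orphan nuclear receptors, also called TR2 and TR4, that bind direct repeats in the embryonic and fetal globin promoters. NR2C1 lies on chromosome 12 from 95020229 to 95073618 and NR2C2 on chromosome 3 from 14947583 to 15049273. NR2C1 had a signal of 688.7 and 721.7 with ZNF16, against 723.8 and 690.1 in the controls, and the groups overlapped. Its 4 probes had detection p-values that summed to at most 0.013 on any array, so that each was detected by itself on every array. The log2 fold change was 0.07 ± 0.22 (SE), with a 95% interval of −0.45 to 0.58 (limma adjusted p = 0.942), and it was −0.04 without control replicate 2.

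NR2C2 had a signal of 616.3 and 603.6 with ZNF16, against 594.3 and 614.3 in the controls, from 2 probes that were each detected on every array. The deposited signals of the groups overlapped, and it was after background correction and normalization that both ZNF16 arrays lay above both controls, by 0.03 to 0.23 on the log2 scale. The log2 fold change was 0.13 ± 0.21 (SE), with a 95% interval of −0.38 to 0.64 (limma adjusted p = 0.888). Under median scaling in place of quantile normalization NR2C1 and NR2C2 had −0.23 and −0.20, but the median of all tested entries was then −0.19 instead of 0.01.

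**Figure D2:**
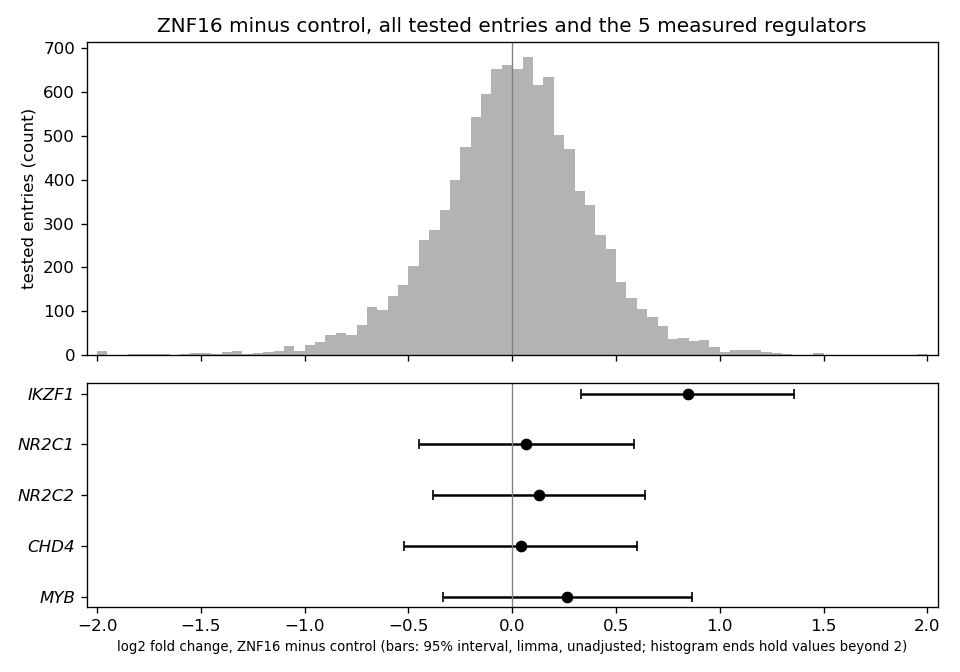
Upper panel, histogram of the log2 fold change (ZNF16 minus control) of the 10868 tested entries, with values beyond the axis limits placed in the end bins. Lower panel, log2 fold change of the 5 measured regulators with 95% limma intervals, not adjusted for the number of entries. The interval of IKZF1, 0.33 to 1.36, lies above 0, and those of NR2C1, NR2C2, CHD4 and MYB span 0.

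BCL11A, the zinc finger repressor whose loss reopens the gamma genes in adult erythroid cells (chromosome 2, 60450520 to 60553924), gave a signal of 363.0 and 334.9 with ZNF16 and 356.1 and 373.2 in the controls. Each lay below its array's inferred negative-control mean, which was 387.8 and 388.8 with ZNF16 and 369.8 and 393.1 in controls. Its entry combines 4 probes with a mean detection p of 0.562 and 0.738 with ZNF16 and 0.519 and 0.554 in controls.

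ZBTB7A, also known as LRF (chromosome 19, 4043303 to 4066899), represses the gamma genes through a promoter element of its own. Its single probe read 316.0 and 422.5 with ZNF16 and 365.4 and 435.2 in the controls, with detection p-values of 0.805 and 0.292 with ZNF16 and 0.569 and 0.279 in controls. The replicates of a group differed by more than the groups did, and no array passed. SOX6, an HMG-box factor that cooperates with BCL11A (chromosome 11, 15966449 to 16738477), read 378.2 and 361.6 with ZNF16 and 363.4 and 393.1 in the controls, from 4 probes with a mean detection p of 0.579 and 0.640 with ZNF16 and 0.525 and 0.474 in controls. These values show only that the repressors were not well above background in either group, and an entry of 4 probes could still hide 1 detected probe.

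How the deposited table combines probes bears on which genes could be measured. A single probe's detection p is a whole number of steps of 1 in 770, and 27095 entries lie on these steps on all arrays. Of the other 7597, 7504 match the chance that as many uniform values would sum to no more than the probes' own p-values, with 2 probes in 4819 entries and 4 in 593. One dim probe thus raises the p of a bright entry. Among entries detected on fewer than 2 arrays, 895 had a signal at or above the detection limit on at least 2 arrays, and all of them combine several probes. HDAC2, a NuRD deacetylase with 2 probes, was one, with 1770.9 and 1871.7 with ZNF16 and 1853.3 and 1953.1 in the controls. None of the 5 undetected regulators was among them.

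The other subunits of NuRD had 10 of 12 genes tested, and 0 passed in either direction. Their log2 fold changes had 6 values above 0 and 4 below, with a median of 0.03. GATAD2A, a scaffold subunit, had 0.46, CDK2AP1 0.46, the deacetylase HDAC1 0.45 and MTA3 0.25, with limma adjusted p-values of at least 0.675. These are the 4 of smallest p. Of the 10, the ZNF16 arrays lay above the controls in these 4 and below them in 1, MTA2, against 21.0% above and 19.0% below over all tested entries. Without control replicate 2, GATAD2A had 0.22, CDK2AP1 0.24 and HDAC1 0.20. HDAC1 had a signal of 14564.9 and 13459.4 with ZNF16, against 13003.9 and 8127.1 in the controls, with control replicate 2 the lowest.

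Of 11 other corepressors and chromatin enzymes 8 were tested, 0 passed, and the median was 0.12. NCOR1, a nuclear receptor corepressor, was detected in the controls alone, through which it passed the filter. It read 458.3 and 421.2 with ZNF16, against 484.5 and 486.4 in the controls, whose detection limits were 459.0 and 485.0. With the ZNF16 arrays taken at their detection limit, the bound was 1.03-fold lower with ZNF16, which is a description only. The fitted difference had a 95% interval of −0.96 to 0.13. SIN3A had a log2 fold change of 0.39, the maintenance DNA methyltransferase DNMT1 0.31 and the arginine methyltransferase PRMT5 0.21, with adjusted p-values of at least 0.677. DNMT1 read 17247.4 and 16807.4 with ZNF16 and 18175.2 and 10956.8 in the controls, again with the low value in control replicate 2, without which its log2 fold change was 0.02.

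Of 11 genes upstream of the silencers 8 were tested and 0 passed, with a median of 0.07. LIN28B, a fetal RNA-binding protein that lowers BCL11A protein, had 0.40 and HIC2, a repressor of BCL11A transcription, also 0.40 (limma adjusted p = 0.716 and 0.677). LIN28B read 4803.9 and 4797.3 with ZNF16, against 4797.1 and 2920.1 in the controls, so that 3 arrays nearly coincided, and its log2 fold change was 0.10 without control replicate 2. HIC2 read 10870.0 and 11265.4 with ZNF16, against 9456.7 and 7586.2 in the controls, and the groups did not overlap. NFIA, detected on 1 array of each group, and IGF2BP3 had −0.18 and 0.15, and each had the opposite sign when either of 2 arrays was left out. LIN28B and HIC2 were detected on every array and BCL11A on none. Their signals come from different probes and are not comparable, and a link between them was not tested.

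Paralogs of the regulators had 12 of 22 genes tested, 0 past the threshold and a median of 0.01. SOX13, a relative of SOX6, read 532.2 and 550.1 with ZNF16, against 411.2 and 478.7 in the controls, and was detected on the ZNF16 arrays alone, through which it passed the filter. With the controls taken at their detection limit, it was at least 1.49-fold higher with ZNF16. The fitted difference had a limma adjusted p of 0.490, and since the gene was tested through the group where it was high, that p is a description only. MBD4 had −0.50, NR2F2 −0.31 and GSPT1 0.24, with limma adjusted p-values of at least 0.687. Without control replicate 2, MBD4 had −0.12 and NR2F2 −0.10. BCL11B, IKZF3, ZBTB7C and SOX5 were detected on no array.

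Of 14 activators of the globin locus and erythroid factors 10 were tested and 0 passed, with 5 values above 0, 5 below and a median of 0.08. NFYC, a subunit of the CCAAT-binding factor, had −0.47, the GATA1 partner ZFPM1 −0.57 and LMO2 0.30, with limma adjusted p-values of at least 0.687, and without control replicate 2 NFYC was −0.14 and ZFPM1 0.03. KLF1, the erythroid activator of BCL11A and of the beta gene, read 902.0 and 856.0 on the ZNF16 arrays, inside the control values of 750.6 and 1074.3. The log2 fold change of KLF1 was −0.01, with an SE of 0.33 (limma adjusted p = 0.997). Of 6 reported MYB targets 3 were tested, KLF1, LMO2 and MYC, and MYC had 0.12 (limma adjusted p = 0.900), with 0.01 without control replicate 2.

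Of the genes that the regulators act on, the beta-globin cluster had 6 of 6 tested and 0 past the threshold. HBD, the delta chain of minor adult haemoglobin, read 4716.3 and 4604.1 with ZNF16, against 2620.8 and 2276.8 in the controls. The groups did not overlap, and the difference was 1.04 ± 0.21 on the log2 scale (SE, limma adjusted p = 0.346). HBB had −0.11, the pseudogene HBBP1 0.18, HBG1 0.00, HBG2 0.09 and HBE1 −0.03, the last 3 at the top of the signal range, and under median scaling, where the median of all tested entries was −0.19, HBBP1 had −0.02, HBG1 −0.26 and HBG2 −0.14. Quantile normalization gives such top entries the same few values on every array, so values near 0 there do not show that these genes were unchanged. Deposited HBG1 signals were 61558.2 and 64781.9 with ZNF16, below 67137.2 and 66411.5 in the controls. Those of HBE1 were 61263.1 and 65175.7 with ZNF16, below 67587.1 and 68826.7 in the controls, while those of HBG2 overlapped. The alpha-globin genes and their chaperone had 5 of 6 tested and 0 past the threshold. HBZ, the embryonic zeta chain, read 54583.0 and 48868.3 with ZNF16, against 38727.3 and 26964.4 in the controls, 0.75 ± 0.25 higher on the log2 scale (SE, limma adjusted p = 0.587). Control replicate 2 was its lowest array. HBA2 had 0.30 and HBA1 0.25 (0.04 and −0.001 under median scaling, again against that median), and the alpha chaperone AHSP had −0.87 ± 0.23 (SE; adjusted p = 0.455), where both ZNF16 arrays, at 1001.5 and 1230.0, lay below both controls, at 1715.5 and 1708.3.

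**Figure D3:**
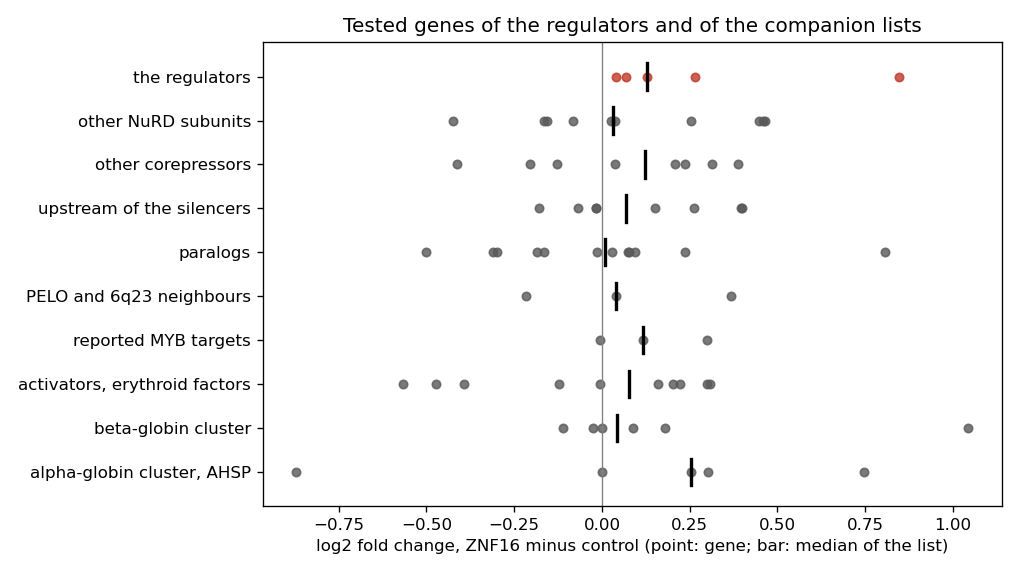
Log2 fold change (ZNF16 minus control) of each tested gene, in red for the regulators and in grey for the companion lists, with a black bar at each list's median. The medians run from 0.01 for the paralogs to 0.25 for the alpha-globin cluster, and no gene shown passed the threshold. The fitted values of NCOR1, SOX13 and ALDH8A1 rest on 1 group below background.

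The start windows of the regulators were searched for the letters known from their binding at the globin genes, on both strands. All 10 have at least 1 window, 21 in all. ACCCC, the core of the ZBTB7A element, lay in 13 of the 21 windows, over 9 regulators, against 52.3% of all 35116 windows. TGACCA, the BCL11A motif, lay in 1 of the 21 windows, a BCL11A window, against 10.7% of all windows. ACAAT, read by SOX6, lay in 9 of the 21, from BCL11A, IKZF1 and SOX6, against 27.4% of all windows. It lay in every window of IKZF1 and of SOX6. TGACCT, 1 unit of the NR2C repeats, lay in 3 of the 21, from ZBTB7A and SOX6, against 13.8%. CCAAT, bound by NF-Y, lay in 7 of the 21, from BCL11A, ZBTB7A, SOX6 and NR2C2, against 34.6%. The shares are over windows, and some regulators have several windows, so they cannot be read as shares of genes. A pair of BCL11A windows overlaps. The motifs are short, TGACCA and TGACCT share their first 5 letters, and a match is not a binding site.

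The direction of IKZF1 and of MYB was the same under each of the 16 other settings tried. Settings that change only the filter, the variance or the block keep the log2 fold change by construction, so they do not test its direction. In IKZF1, whose groups did not overlap, leaving out 1 array cannot change the sign either. CHD4 and NR2C1 took the opposite sign with 1 array left out. NR2C2 did so under median scaling alone, where the median of all tested entries was −0.19 and its own value −0.20. No regulator had a limma adjusted p under 0.05 in any of them. For IKZF1 it ran from 0.0911, without control replicate 1, to 1, without ZNF16 replicate 1. With 1 array left out, the lone array of a group is assumed to vary like the other group's.

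**Figure D4:**
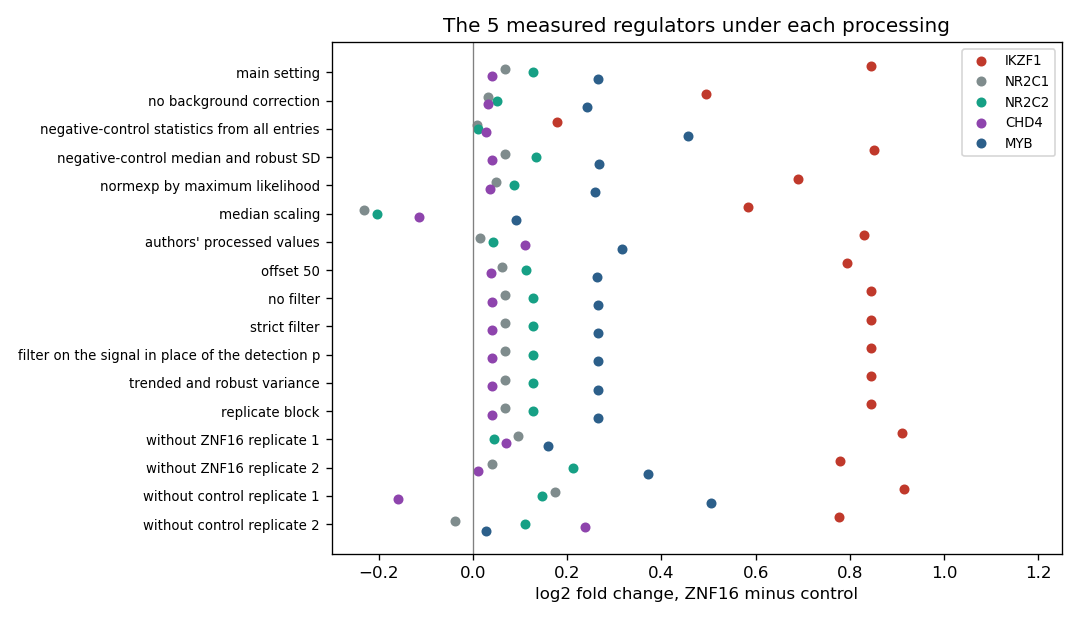
Log2 fold change (ZNF16 minus control) of the 5 measured regulators under the main setting and the 16 others, 1 row for each. IKZF1 runs from 0.18 to 0.92 and MYB from 0.03 to 0.50, while CHD4, NR2C1 and NR2C2 lie on either side of 0.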

How the data were processed

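The deposited signals are bead intensity on a linear scale. The submitters' processing notes name GenomeStudio 2010.2. Judged from the values, nothing had been subtracted or scaled. Detection p-values were deposited beside them, per the file headers. Build and annotation: not given in the sources used here. A second deposited table holds the authors' processed intensity values, each linear in that array's signal (slopes 0.948 to 1.05), and served as an alternative. The mean signal of an array was 956.1 and 991.8 with ZNF16 and 998.2 and 971.9 in controls, with 28.6% to 31.0% of entries detected. The number of arrays limits the precision.

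Background was corrected with limma's normexp (limma 3.58.1, R 4.3.3), with negative-control statistics inferred from single-probe entries and an offset of 16. Quantile normalization and log2 followed. Entries detected (p under 0.05) on at least 2 arrays were tested two-sided for ZNF16 minus control with lmFit and eBayes. The fit was also run on simulated arrays with independent noise and no outlying array. That setting lacks an array like control replicate 2, so it does not vouch for the p-values here. With 2 arrays against 2, an exact permutation test cannot go below a p of 0.333. The detection limit is the lowest signal of a detected single-probe entry. A fold against a group below background sets that limit in its place and is a lower bound that does not allow for the spread between arrays. The members, the 13 companion and marker lists and the plan were chosen with earlier results of these data known. Named are all members, the 4 genes of smallest p in each list, the beta-cluster globins and the 3 entries nearest in pattern to MYB. That last comparison was not made for BCL11A and ZBTB7A, which were at background, and other genes, among them those at background, were named after their values were seen. Protein sequences were not used here, and some genes that this rule names are not reported here. KDM1A and LIN28A were matched through older symbols. Start windows are from RefSeq, GRCh38.p14.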

Additional observations from a re-analysis of the deposited data

How the results depend on the processing

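In all, 14 settings were planned and 2 were chosen after seeing the data. No regulator passed under any of them. Over all tested entries limma called 0 (834 at an unadjusted p under 0.05), and 3 with normexp by maximum likelihood, with an offset of 50 and with trended and robust variance, 7 with median scaling, and 0 to 2 with 1 array left out. With the replicate number as a block it called 114, none a regulator, and IKZF1 had an adjusted p of 0.146. The arrays share only a number, so no pairing is claimed. The correlation of same-numbered deviations, 0.193, is by construction one value for both pairs.

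The regulators' median was 0.05 with no background correction, 0.028 with negative-control statistics from all entries and −0.115 under median scaling, and ran from 0.096 to 0.212 with 1 array left out. Their groups did not overlap in 2 of 5, in 1 in the authors' processed values, and in 2 to 5 with 1 array left out, against 40.0%, 40.3% and 60.0% to 80.7% of all tested entries under those settings. IKZF1 was lowest, at 0.178, with statistics from all entries. That setting puts the negative-control mean at 535.3 to 554.2, above the median signal of every array. With the negative-control median and a robust SD, chosen after seeing the data, IKZF1 was 0.85.

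Under median scaling CHD4 had −0.115, NR2C1 −0.231, NR2C2 −0.204, HBA1 −0.001, HBBP1 −0.018, HBG1 −0.259, HBG2 −0.135, MYC −0.021 and PELO −0.106, where the median of all tested entries was −0.189. HBG1 was 0 to 3 decimals with no background correction, maximum likelihood, an offset of 50 and a robust SD, and −0.036 in the authors' values. The settings that gave 0, and the fits with 1 array left out, all use quantile normalization. It gives the brightest entries of every array the same few values, so these HBG1 values are set by the method and do not show stability. With 1 array left out the log2 fold change ran from −0.159 to 0.238 in CHD4, −0.038 to 0.173 in NR2C1, −0.796 to 0.008 in GATA1, −0.136 to 0.642 in HBA1, −0.221 to 0.001 in HBB, −0.003 to 0.003 in HBG1, −0.081 to 0.384 in IGF2BP3, −0.464 to 0.453 in KLF1, −0.416 to 0.059 in NFIA, −0.039 to 0.119 in PELO and −1.167 to 0.031 in ZFPM1. The cause of these changes was not tested.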
